A study of Homo sapiens with 12 samples.

Results

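The acute-phase proteins examined here were 8 plasma proteins whose genes are named SAA1, SAA2, CRP, LBP, HP, ORM1, ORM2 and SERPINA3 in the count files. The members were taken by gene name from the 57736 genes counted, and the counts of all 3′ regions of a gene were summed. Human HepG2 cells (hepatocellular carcinoma of the liver) and human Ls174 cells (intestinal cancer), both of wild-type genotype, were cultured for 24 h with a methanol extract of the red seaweed Hypnea musciformis (HME) or without treatment. The labels give 0.7 mg/ml as the extract concentration, and the methods of the study state another one. RNA of 3 biological replicates of each of the 4 groups (HepG2 control, HepG2 HME, Ls174 control and Ls174 HME) was sequenced from its 3′ ends, which gave 12 libraries. Each group is 1 established tumour line in culture, and the labels name no immune cell or other liver cell beside it. Markers of other cell types are given below.

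Acute-phase proteins are made mainly by hepatocytes, which change the output of plasma proteins when cytokines signal injury or infection. Interleukin-6 and its relatives act through the shared receptor chain gp130 (IL6ST), the JAK kinases and STAT3, while interleukin-1 and tumour necrosis factor act through NF-κB, and C/EBP factors take part in both routes. The serum amyloid A proteins (SAA1, SAA2) and C-reactive protein (CRP) are the classical strongly inducible members. LBP binds bacterial lipopolysaccharide, haptoglobin (HP) binds free haemoglobin, the orosomucoids (ORM1, ORM2) are lipid-binding glycoproteins, and SERPINA3 (α1-antichymotrypsin) inhibits neutrophil cathepsin G.

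The libraries held 1790841 to 3656662 counts, so that 3 counts, taken as the detection floor of a library, corresponded to 0.820 to 1.68 CPM, the usual unit of counts scaled to a common library total. These floors and the intervals given for counts cover counting error only. The 8 hepatocyte markers looked at (ALB, AFP, APOB, APOA2, TTR, SERPINA1, FGB, AHSG) were counted in HepG2 cells with a summed level of 16680 to 24990 CPM. The 8 intestinal markers (CDX2, CDX1, VIL1, CDH17, LGALS4, KRT20, MUC2, TFF3) summed to 408 to 508 CPM in Ls174 cells. Of these, KRT20 had 0 or 1 counts and MUC2 had 0 to 7 in each Ls174 library. In HepG2 cells the same list summed to 68.5 to 187.5 CPM, mainly VIL1 (52.0 to 168 CPM). HepG2 control 2 stood apart from the other controls in several liver genes. In HepG2 HME 2 the 7 mesenchymal markers summed to 891 CPM, against 3.37 to 15.7 CPM in the other HepG2 libraries. Nearly all of this was COL1A1 (1560 counts) and COL1A2 (1153 counts). COL3A1 had 5 counts and THY1 had 2 in that library, and LUM, DCN and PDGFRB had 0. LUM (6 counts) and THY1 (8 counts) were higher in HME 3. Of 9 blood markers, PTPRC, HBB, S100A8 and MPO had 0 counts in the 6 HepG2 libraries, HBA1 had 1 to 6, CD14 had 0 to 15, and HBA2 and S100A9 had at most 2 counts, while the sum of the list (93.0 to 515 CPM) was nearly all LYZ. Endothelial markers summed to at most 4.28 CPM in HepG2 cells. The part of these other cell markers in the results was not tested. The levels are bulk values, in which fewer cells of a type and less RNA per cell cannot be told apart.

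To show the regulatory sequence of members with different outcomes, the 250 bases before the transcription start are printed for SERPINA3, which was higher with HME in HepG2 cells, for ORM1, which was expressed and not called, and for CRP, which had 0 counts. They are from RefSeq (build GRCh38.p14), written 5′ to 3′ on the strand of the gene, at chr14:94612141-94612390 (plus strand), chr9:114322848-114323097 (plus strand) and chr1:159714590-159714839 (minus strand). The table of RefSeq promoters used here held 3 of the 8 members, and SAA1, SAA2, LBP, HP and ORM2 had no entry. Capitals mark matches to the C/EBP pattern TTNNGNAA on either strand.
SERPINA3: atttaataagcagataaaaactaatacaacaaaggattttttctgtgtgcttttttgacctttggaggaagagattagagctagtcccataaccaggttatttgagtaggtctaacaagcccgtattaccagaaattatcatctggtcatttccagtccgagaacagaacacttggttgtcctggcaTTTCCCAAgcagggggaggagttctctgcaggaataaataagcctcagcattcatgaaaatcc
ORM1: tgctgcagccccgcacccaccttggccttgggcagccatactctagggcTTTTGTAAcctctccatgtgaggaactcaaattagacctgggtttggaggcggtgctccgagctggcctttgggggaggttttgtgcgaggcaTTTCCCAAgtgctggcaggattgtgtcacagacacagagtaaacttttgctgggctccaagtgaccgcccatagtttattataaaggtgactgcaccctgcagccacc
CRP: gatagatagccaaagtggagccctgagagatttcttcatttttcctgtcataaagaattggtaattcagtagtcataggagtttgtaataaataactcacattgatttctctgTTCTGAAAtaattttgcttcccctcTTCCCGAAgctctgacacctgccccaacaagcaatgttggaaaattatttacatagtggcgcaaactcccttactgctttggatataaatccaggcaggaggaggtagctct
Both strands of 300 bases around each start were searched for the C/EBP pattern, a STAT pattern (TTCNNNGAA) and an NF-κB pattern (GGANNTTCC). The C/EBP pattern occurred once for SERPINA3, as TTTCCCAA beginning 63 bases before the start and read on the opposite strand. The same 8 letters stood 108 bases before the start of ORM1, which also held TTTTGTAA at 201 bases. CRP held TTCTGAAA at 137 bases and TTCCCGAA at 112 bases before its start. The C/EBP pattern was found in 36.8% of the 35116 promoters of the table, so that its presence in the 3 windows is a description of the letters alone. The STAT and NF-κB patterns, which 7.66% and 4.57% of the promoters held, were not found in these 3 windows. Sites with other letters or another spacing were not searched for, so a site of these factors may still be present.

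In HepG2 cells, SERPINA3 was higher with HME. ORM1, ORM2 and HP had lower mean levels, with overlapping groups and differences that did not pass the test, and SAA1, SAA2, CRP and LBP were at or near 0 with and without HME. The comparison asked which transcripts changed in treated against untreated cells, with edgeR's quasi-likelihood test and the thresholds of the study (a log2 fold change beyond 0.58 at an unadjusted p under 0.05). Of the 8 members, SERPINA3, ORM1, ORM2 and HP passed the filter on low counts. Of these 4, 1 was called higher (11.3% of the 11343 genes tested were) and 0 lower (10.9% were), so that 1 of 4 was called in either direction against 22.2% of all genes. At a Benjamini-Hochberg adjusted p under 0.05, edgeR called 0 of the 4 members (3.31% of all genes), with 1 at an unadjusted p under 0.05, while DESeq2 called 1 (9.11% of all genes) and a binomial test on summed counts 4 (63.0% of all genes). The HME and control libraries did not overlap for 1 of the 4, as for 30.8% of all genes. The median log2 fold change of the 4 members was -0.44, and that of all genes tested was -0.04.

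SAA1 (ENSG00000173432), counted in 1 region over its 3′ end (chromosome 11, 18291403 to 18291721, GRCh37), had 0 counts in all 12 libraries. CRP (ENSG00000132693, chromosome 1, 159681882 to 159683314) likewise had 0 counts in all 12. For HepG2 cells, 0 of 7973139 control counts allows a level of up to 0.376 CPM of the total by the limit of 3 counts (0.463 CPM by the exact two-sided 95% interval), and 0 of 8097703 HME counts allows up to 0.371 CPM (0.456 CPM by the exact interval). SAA1 and CRP were therefore not detectable at this depth in either condition.

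SAA2 (ENSG00000134339) had 0 counts in each HepG2 control library and 3, 1 and 1 counts in HME 1, 2 and 3. All 5 counts lay in the region of the canonical 3′ end (chromosome 11, 18266578 to 18266923), and they correspond to 0.617 CPM of the total (exact 95% interval 0.20 to 1.44). No library exceeded the floor of 3 counts, so that no fold is given. LBP (ENSG00000129988, chromosome 20, 37005312 to 37005862) had 2 counts in HepG2 HME 2 and 0 in the other 11 libraries. The aligned part of the SAA1 and SAA2 3′ regions was 73.6% identical over 235 positions, with at most 28 identical bases in a row. SAA4 (ENSG00000148965), the constitutively made serum amyloid A, served as a neighbour on the same chromosome that the cells did express. Its counts were 910, 463 and 904 in the controls and 950, 697 and 426 with HME, which is a log2 ratio of -0.02 with an SE of 0.32 (edgeR adjusted p = 0.977). Its region overlaps that of the readthrough gene SAA2-SAA4, so the 2 genes share their reads.

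SERPINA3 (ENSG00000196136) was the most abundant member in HME-treated HepG2 cells. Its TMM-normalized level was 589, 427 and 736 CPM in controls 1, 2 and 3 and 1855, 1242 and 1396 CPM with HME 1, 2 and 3. Each HME library lay above each control library, the lowest HME value being that of HME 2, the library with the collagen transcripts. The mean rose from 584 ± 154 to 1498 ± 319 CPM (SD, n = 3 per group), 2.57 times the control mean. The log2 fold change was 1.36 ± 0.35 (SE), with an edgeR p of 0.00307 and an adjusted p of 0.0658. The gene thus passed the thresholds of the study and missed the adjusted one. Without control 2, the lowest control, the log2 fold change was 1.19 and the adjusted p 0.0306, and without HME 2 it was 1.49 with an adjusted p of 0.150. Nearly all counts (99.1%) came from the region of the last exon (chromosome 14, 95089948 to 95090589, plus strand), which spans 201 coding bases, the 3′ UTR and 197 bases past the annotated gene end. A clone-named gene with a mean of 1042 CPM over the HepG2 libraries overlaps SERPINA3 and shares its reads. The share of each gene is therefore uncertain.

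**Figure D1:**
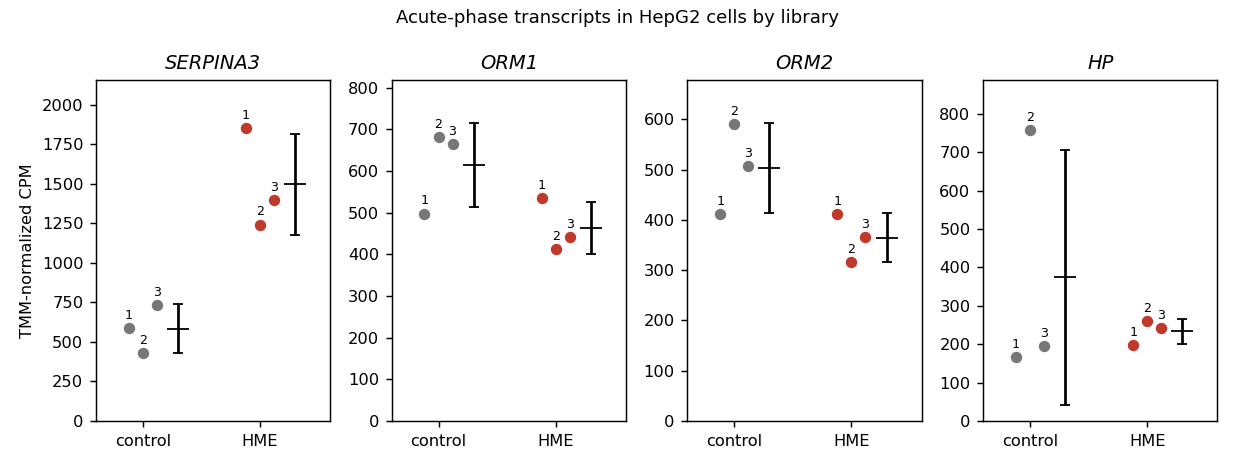
TMM-normalized level (CPM, y axis) of the 4 expressed members in each HepG2 control (grey) and HME (red) library, numbered by replicate, with the mean and SD (black) of 3 libraries beside them. SERPINA3 libraries separate by treatment (427 to 736 against 1242 to 1855 CPM), while ORM1, ORM2 and HP overlap and HP control 2 (757 CPM) lies far above the other 5.

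ORM1 (ENSG00000229314) and ORM2 (ENSG00000228278) are neighbouring copies on chromosome 9. ORM1 stood at 498, 680 and 664 CPM in controls 1, 2 and 3 and at 534, 413 and 442 CPM in HME 1, 2 and 3. HME 1 lay above control 1, so the groups overlapped. The means were 614 ± 101 and 463 ± 63.1 CPM (SD, n = 3), and the log2 fold change was -0.41 ± 0.31 (SE; edgeR adjusted p = 0.455). ORM2 stood at 412, 590 and 507 CPM in the controls and at 412, 315 and 366 CPM with HME. The groups overlapped through control 1 and HME 1, whose levels were nearly equal. The means were 503 ± 89.2 and 365 ± 48.6 CPM, and the log2 fold change was -0.46 ± 0.31 (SE; edgeR adjusted p = 0.397).

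The orosomucoid counts cannot be treated as independent measurements. The main 3′ regions of ORM1 (117088638 to 117088952) and ORM2 (117095415 to 117095729) were identical at 314 of 315 positions, and the sources used here do not state how reads with several alignments were handled. The ratio of ORM2 to ORM1 counts ranged from 0.762 to 0.867 over the 6 HepG2 libraries. ORM1 drew 88.8% of its counts from that region and 11.2% from a region inside an intron (117087532 to 117087728), whereas ORM2 drew 8.74% and 1.75% from regions in coding exons. With both copies summed to 1 gene, SERPINA3 remained the called member.

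HP (ENSG00000257017, chromosome 16, 72094534 to 72095151) had levels of 168, 757 and 196 CPM in controls 1, 2 and 3 and of 198, 260 and 241 CPM in HME 1, 2 and 3. Control 2 was far above all other libraries, while the HME libraries lay just above controls 1 and 3. The means were 374 ± 333 and 233 ± 32.0 CPM (SD, n = 3), and the log2 fold change of -0.68 had an SE of 0.55 (edgeR adjusted p = 0.489). Without control 2 the direction turned, to a log2 fold change of 0.38 (adjusted p = 0.361), so 1 library decided the sign. HPR, the haptoglobin-related gene beside HP, gave -0.76 ± 0.57 on the same log2 scale (SE; adjusted p = 0.455) and, without control 2, 0.37. Its 3′ region was identical to that of HP at 449 of 450 positions, and its counts were 0.844 to 0.933 times those of HP in each HepG2 library, so the share of each gene is uncertain.

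**Figure D2:**
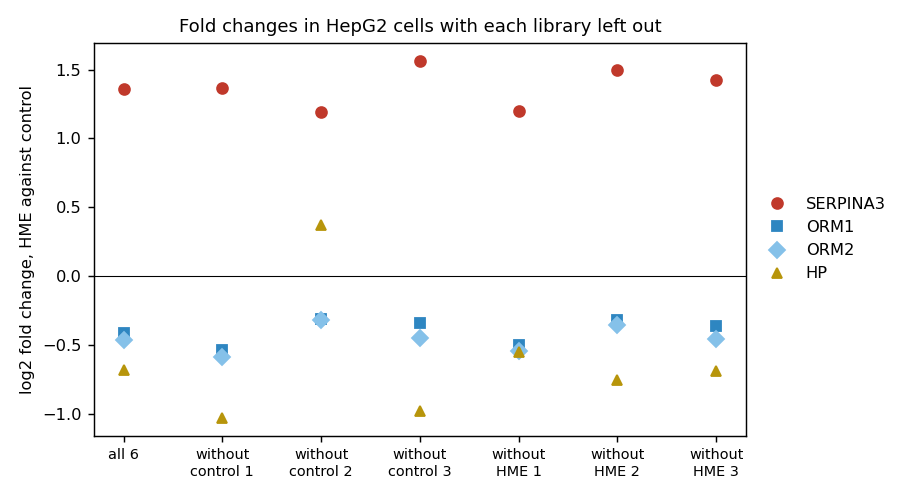
Log2 fold change of HME against control (y axis) for the 4 expressed members in HepG2 cells, with all 6 libraries and with each library left out in turn (x axis). SERPINA3 stays between 1.19 and 1.57 and ORM1 and ORM2 stay below 0, whereas HP moves from -0.68 to 0.38 without control 2.

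The make-up of the acute-phase output was then compared as the share of each gene in the summed counts of the 4 expressed members, a measure that needs no scaling between libraries. SERPINA3 made up 35.4%, 17.4% and 35.0% in controls 1, 2 and 3 and 61.9%, 55.7% and 57.1% in HME 1, 2 and 3, with no overlap. Its mean share was 29.2% ± 10.3 without HME and 58.2% ± 3.24 with HME (SD, n = 3; two-sided exact permutation p = 0.1, 0.133 after adjustment over 4 shares). The share of ORM1 was 29.7% ± 1.93 and 18.1% ± 0.370, and that of ORM2 was 24.3% ± 0.369 and 14.3% ± 0.634 (exact permutation p = 0.1 each, n = 3). An exact test of 3 against 3 libraries cannot give a p under 0.1. The HP share, 16.7% ± 12.2 without and 9.38% ± 2.57 with HME, followed control 2 (exact permutation p = 0.5, n = 3). Shares of 1 sum depend on each other, so the lower orosomucoid share and the higher SERPINA3 share are not separate observations.

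**Figure D3:**
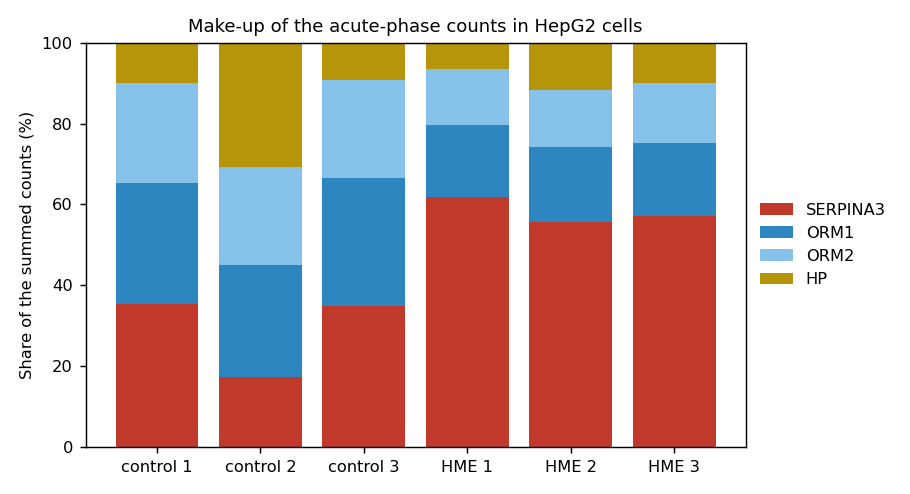
Share of SERPINA3, ORM1, ORM2 and HP (stacked bars, y axis in percent) in the summed counts of these 4 genes, for each HepG2 library (x axis). SERPINA3 takes 17.4% to 35.4% in the controls and 55.7% to 61.9% with HME.

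Other acute-phase genes of the liver were taken from lists written from general knowledge. Of 25 further positive acute-phase proteins, 20 were tested in HepG2 cells, of which 1 was called higher and 3 lower at the thresholds of the study (11.3% and 10.9% of all genes). At an adjusted p under 0.05, edgeR called 0 of the 20 (3.31% of all genes). DESeq2 called 2, both lower, against 9.11% of all genes in either direction. FGL1, a fibrinogen-like protein secreted by hepatocytes, rose by a log2 fold change of 1.05 (adjusted p = 0.115). The fibrinogen γ chain FGG fell by 1.10 (adjusted p = 0.117), the inter-α-trypsin inhibitor chain ITIH3 fell by 1.37 (adjusted p = 0.189) and the leucine-rich glycoprotein LRG1 fell by 1.62 (adjusted p = 0.104). The median log2 fold change of these 20 genes was -0.40, and -0.19 without control 2. Without that library, 1 of the 20 was called higher and 3 lower, where 2874 of 11899 genes were called in either direction. LRG1 moved to -0.80, and ITIH3 was no longer called with a log2 fold change of -0.42. The call of ITIH3 was also lost without any 1 of the HME libraries, and it held in 5 of 10 alternative fits. The call of LRG1 was lost with control 2 and HME 2 both left out, and that of FGG without HME 1. The fibrinogen β chain FGB (log2 fold change 0.16) and the protease inhibitor SERPINA1 (-0.78), relative of SERPINA3 on the same chromosome, were not called. FGB had a negative value (-0.20) and SERPINA1 one of -0.02 without control 2.

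Of 10 negative acute-phase proteins, whose output is known to fall in inflammation, 9 were tested, 0 were called higher and 1 lower (11.3% and 10.9% of all genes), with a median log2 fold change of -0.21. APOA1, the main protein of high-density lipoprotein, had levels of 1146, 3057 and 1034 CPM in controls 1, 2 and 3 and fell by 1.22 (adjusted p = 0.159). Its call was lost without control 2 (log2 fold change -0.53) and without any 1 of the HME libraries, and held in 5 of 10 alternative fits. Albumin (ALB) had a log2 fold change of -0.18 and was not called, with -0.53 without control 2 and the other sign in 1 of 10 alternative fits. Among the 8 hepatocyte markers as a whole, 1 was called (22.2% of all genes were), APOB, which fell by 1.37 (adjusted p = 0.0604). APOB kept this call in each of 10 alternative fits, with an adjusted p under 0.05 in 5 of them. Of the 8 markers, 2 were called lower without control 2, AFP and APOB. Without control 2, 10 negative acute-phase proteins were tested, and 0 were called higher and 2 lower (FETUB and SERPINA6). FETUB passed the filter on low counts in that fit through its control libraries. In that fit 2874 of 11899 genes were called in either direction.

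**Figure D4:**
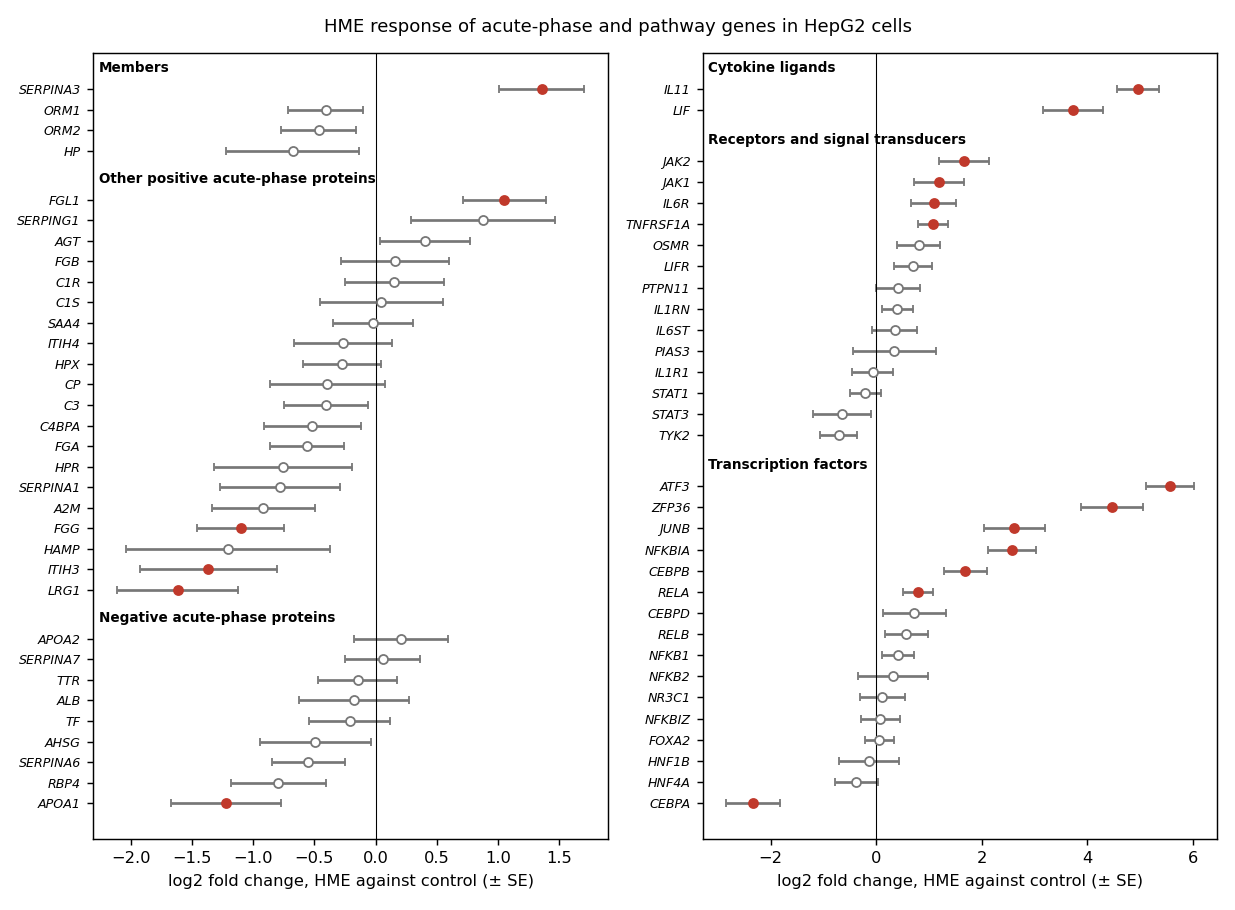
Log2 fold change of HME against control with its SE (x axes) for each tested member and the listed genes reported in HepG2 cells (rows), grouped by role, with filled red points for genes past the thresholds of the study and open points for the others. SERPINA3 (1.36) and FGL1 (1.05) are the filled acute-phase genes to the right of 0. IL11, LIF, ATF3, ZFP36, JUNB and NFKBIA lie furthest to the right among the signalling genes. The points of LIF and ZFP36 rest on control counts of 1 to 3, and that of ATF3 on control counts of 3 to 22.

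The upstream signals were examined by their roles, beginning with the cytokine ligands. IL6, IL1A, IL1B, TNF and IL22 had 0 counts in all HepG2 libraries. IL11, an interleukin that signals through gp130, had 8, 7 and 6 counts in the controls and 223, 250 and 148 counts with HME, and LIF, another gp130 cytokine, had 3, 1 and 3 counts and 21, 31 and 30 counts. For both, each HME library lay above each control library, and the groups did not overlap in 30.8% of all genes. Of the 10 ligands listed, these 2 passed the filter on low counts, and they did so through the HME libraries, so that their number says nothing about the list. The log2 fold change of IL11 was 4.96 ± 0.40 (SE; edgeR adjusted p = 0.00062), and no fold is given for LIF, whose controls did not exceed 3 counts.

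Of 17 receptors and signal transducers, 14 were tested, and 4 were called higher and 0 lower (11.3% and 10.9% of all genes). At an adjusted p under 0.05, edgeR called 0 (DESeq2 called 1, against 9.11% of all genes). JAK2, which is among the 4, had 9, 4 and 7 counts in the controls and 25, 25 and 9 counts with HME. It passed the filter on low counts through its HME libraries, so the numbers called are a description of the list. The log2 fold changes were 1.09 for the interleukin-6 receptor IL6R (adjusted p = 0.182), 1.07 for the tumour necrosis factor receptor TNFRSF1A (adjusted p = 0.0711), 1.19 for JAK1 (adjusted p = 0.184) and 1.66 for JAK2 (adjusted p = 0.0872). IL6R moved to 1.73 (adjusted p = 0.00483) without control 2 and lost its call when any 1 of the other 5 libraries was left out, and JAK1 lost its call without control 3, HME 1 or HME 3 and with scaling by library size only. IL6ST, the gp130 chain, had a log2 fold change of 0.35 (0.05 without control 2) and STAT3 one of -0.65, and neither was called. The STAT3 value turned to 0.32 without control 2, in which STAT3 stood at 220 CPM against 71.8 and 42.8 CPM in the other controls. SOCS3, a STAT3 target that damps the pathway, did not pass the filter, with 1, 0 and 0 counts in the controls and 4, 16 and 5 counts with HME.

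All 17 transcription factors and early regulators listed were tested in HepG2 cells, and 6 were called higher and 1 lower (11.3% and 10.9% of all genes), of which 4 and 1 also had an adjusted p under 0.05 (3.31% of all genes in either direction). ZFP36, which is among the 6 and the 4, passed the filter on low counts through its HME libraries. ATF3, also among both, had 22, 3 and 13 counts in the controls and 654, 481 and 359 counts with HME. Its controls alone would not have passed the filter. The numbers of factors called are therefore given as a description of the list. The adjusted calls fell to 2 higher and 0 lower without HME 1, HME 2 or HME 3, to 3 and 0 without control 1, and to 2 and 1 without control 3. ATF3, a stress-response factor, rose by a log2 fold change of 5.57 (adjusted p = 0.00062). This fold rests on low control counts, with control 2 at the floor of 3 counts, and it was 5.31 without control 2. ZFP36, which promotes decay of cytokine mRNAs, had 1, 1 and 3 counts in the controls and 49, 37 and 23 counts with HME, and no fold is given because its controls did not exceed 3 counts. The AP-1 subunit JUNB rose by 2.62 (adjusted p = 0.0401) and NFKBIA, the inhibitor and target of NF-κB, by 2.58 (adjusted p = 0.0165). CEBPB, the C/EBP factor linked to interleukin-6, had levels of 7.23, 7.95 and 15.2 CPM in the controls and 42.7, 22.9 and 33.2 CPM with HME, which is a log2 fold change of 1.69 with an SE of 0.41 and an adjusted p of 0.0588. CEBPA, which maintains the differentiated hepatocyte, had levels of 150, 314 and 102 CPM in the controls and 19.5, 48.8 and 44.4 CPM with HME, and fell by 2.33 with an SE of 0.51 and an adjusted p of 0.040. In both genes the HME and control libraries did not overlap, as in 30.8% of all genes. The NF-κB subunit RELA passed the thresholds of the study with a log2 fold change of 0.80 (adjusted p = 0.149). CEBPD (0.72) and HNF4A (-0.38), a liver-enriched factor, were not called. CEBPB and CEBPA were called at the thresholds of the study in each of 10 alternative fits, while the adjusted call of CEBPA held in 6 of them and was lost without control 1 or any 1 of the HME libraries. CEBPB and CEBPA thus moved in opposite directions, and their binding to the C/EBP letters shown above was not measured.

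In Ls174 cells, the 8 members had 0 or low counts, the highest being 35 counts of ORM1 in HME 1. SAA1, SAA2, CRP and LBP had 0 counts in the 6 libraries, and 0 of the 8 members exceeded 3 counts in each of the 3 libraries of a group, whereas HP, ORM1, ORM2 and SERPINA3 did so in both HepG2 groups. SERPINA3 had 0, 0 and 13 counts in controls 1, 2 and 3 and 7, 0 and 2 in HME 1, 2 and 3. ORM1 had 0, 5 and 10 and then 35, 0 and 2 counts. The counts fell mainly on control 3 and HME 1. ORM2 had 0, 1 and 11 and then 23, 0 and 2 counts, and HP had 0, 0 and 15 and then 9, 1 and 0 counts. Because 0 members passed the filter, 0 were tested and 0 called by edgeR at the thresholds of the study, and 12% of the 11319 genes tested in Ls174 cells were called.

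The counts of hepatocyte markers moved with those of the members. The 8 markers had 3, 1 and 539 counts in Ls174 controls 1, 2 and 3 and 189, 3 and 34 counts in HME 1, 2 and 3, and the 8 members together had 0, 6 and 49 and then 74, 1 and 6 counts. ALB alone had 176 counts in control 3, 45 in HME 1, 29 in HME 3 and 0 in the other libraries. The marker sum in control 3 corresponded to 0.641% of the level in HepG2 controls, and that of HME 1 to 0.295%. For the members these values were 0.662% and 1.32%, so that HME 1 was the higher of these libraries for the members and control 3 for the markers. The part of liver RNA in these counts was not tested.

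**Figure D5:**
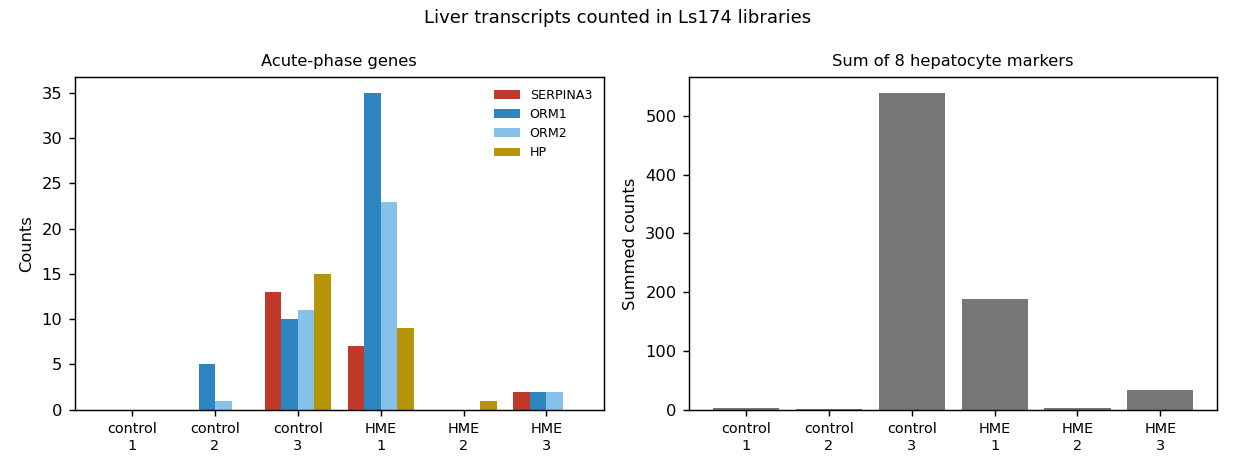
Counts of SERPINA3, ORM1, ORM2 and HP (left) and summed counts of 8 hepatocyte markers (right) in each Ls174 library (x axes). Both panels are highest in control 3 and HME 1, with up to 35 counts of a member and 539 and 189 marker counts.

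In a fit of all 12 libraries, HP, ORM1, ORM2 and SERPINA3 passed the filter on low counts, and they did so through their HepG2 counts. That all 4 had an adjusted p under 0.05 and were higher in HepG2 controls than in Ls174 controls (19.6% of 13040 genes were) was therefore fixed by the filter and is given as a description. Over the summed controls, SERPINA3 had 649 CPM of the total in HepG2 (exact 95% interval 631 to 667) and 1.56 in Ls174 (0.833 to 2.67). ORM1 had 628 CPM (611 to 646) and 1.80 CPM (1.01 to 2.98), ORM2 had 511 CPM (495 to 527) and 1.44 CPM (0.746 to 2.52), and HP had 310.3 CPM (298 to 323) and 1.80 CPM (1.01 to 2.98). Within HepG2 controls, SERPINA3, ORM1 and ORM2 had mean levels of 584, 614 and 503 CPM, whose ranges over the 3 libraries overlapped. HP stood below them in controls 1 and 3 (168 and 196 CPM) and above them in control 2 (757 CPM), so it has no fixed place in this order. A 3′ count does not grow with transcript length, so these levels were compared without a length term.

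The difference of the HME effect between the lines was fitted as an interaction, in which 0 of the 4 members had an adjusted or unadjusted p under 0.05 by edgeR (0.644% of all genes at the adjusted one) and DESeq2 called 0 at an adjusted p under 0.05 (2.91% of all genes). Since none of the 4 passed the filter in Ls174 cells, with control counts such as 0, 0 and 13 for SERPINA3, the fit has no measured effect there to compare and says nothing about whether the lines differ.

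The genes most like each expressed member were described by Pearson's r of log2 CPM over the 6 HepG2 libraries, among 8638 genes of at least 10 CPM on average. For SERPINA3, the highest value (1.00) belonged to a clone-named gene that overlaps SERPINA3 and shares its reads, followed by PPP2CB, a catalytic subunit of protein phosphatase 2A (r = 0.996). For HP they were HPR (r = 1.00) and the MAP kinase kinase MAP2K2 (r = 0.995). For ORM1 they were the disulfide isomerase PDIA6 (r = 0.997) and the ribonucleoprotein NHP2 (r = 0.995), and for ORM2 they were EMILIN2 (r = 0.994) and the myosin MYH14 (r = 0.994). Over 6 points such values are common, since 61 to 202 genes exceeded 0.95 for each member, and the points share libraries and depth.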

How the data were processed

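Libraries of RNA 3′ ends were prepared from HepG2 and Ls174 cells with and without HME. The authors aligned the reads to hg19 (GRCh37) with HISAT2 and deposited raw counts per 3′ region made with metaseqR2, not normalized. The submitters' processing notes also name Trimmomatic and Bowtie2, and give no versions. The handling of reads with several alignments and of strand is not given in the sources used here. The counts were summed per gene here. Groups came from the sample labels. Each line was fitted by itself (3 HME and 3 control libraries, no covariate) with edgeR 4.0.16 in R 4.3.3 (TMM scaling, filterByExpr, quasi-likelihood F test, two-sided, Benjamini-Hochberg over all tested genes), and the lines were compared in a fit of all 12 libraries. The SE was derived from the F statistic. Other tests used Python 3.11.15, scipy 1.17.1 and biopython 1.88.

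Alternatives were DESeq2 1.42.0, a binomial test on summed counts, other scalings and filters, 1 fit of all libraries, a replicate block, summed copies, the largest region alone, and each library left out. Fits without HepG2 control 2 and HME 2, and without Ls174 control 3 and HME 1, as well as those of the pathway lists, were chosen after seeing the data. Replicates were compared by chi-square, and 0 pairs were duplicates. Deviations of same-numbered libraries correlated between -0.166 and 0.0885 in HepG2 and between -0.0539 and -0.00694 in Ls174 cells, so the numbers were not taken as pairs. The procedure was tested on simulated data.

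The members, the lists of pathway and marker genes and the motifs were chosen with earlier results of these data known. All members are named, as are listed genes called in HepG2 cells, a set of named pathway genes, near-identical copies, and for each tested member the 2 most similar genes. CFB, listed under more than 1 identifier, and PECAM1, which did not match by name, were left out of the lists. The values of 1 listed transcription factor and of 1 motif are not reported here. The biological replicates are taken as separate samples, and p-values measure only the spread between them.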

Additional observations from a re-analysis of the deposited data

How the results depend on the processing

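In HepG2 cells, 1 member (SERPINA3) was called at the thresholds of the study under every setting run. At an adjusted p under 0.05, edgeR called 0, while 1 was called by DESeq2, 1 with no filter beyond 1 count, 4 by the binomial test on summed counts, which has no term for replicate spread, and 1 with control 2 and HME 2 both left out (chosen after seeing the data). With each library left out in turn it was 0 to 1, the 1 being without control 2. The log2 fold change of SERPINA3 ranged from 1.19 to 1.57 with a library left out (adjusted p 0.0306 to 0.213) and from 1.19 (library size only) to 1.38 under the other settings. HP ranged from -1.03 to 0.38 with a library left out and was reversed without control 2 (0.38) and with control 2 and HME 2 left out (0.28), and the cause was not tested. ORM1 and ORM2 stayed negative and uncalled at the study thresholds. The replicate block gave SERPINA3 a log2 fold change of 1.37 with an adjusted p of 0.106, and called 1 HepG2 member at the study thresholds, 0 at an adjusted p, 0 Ls174 members and 0 interactions. It was not run for the comparison of the lines, in which replicate number is nested. Over all genes, the block moved the adjusted calls from 375 to 349 in HepG2 and from 134 to 0 in Ls174 cells. The number called at an adjusted p in HepG2 cells also ranged from 95 to 921 with a library left out, and was 1033 by DESeq2, 7145 by the binomial test and 1407 without a filter. Scaling by library size shifted the median of all genes to -0.20. In the list of further positive acute-phase proteins, the genes called lower (3) numbered 6 without control 1, 2 without HME 2 or HME 3, and 1 without HME 1, and the receptors called higher (4) numbered 2 without control 3, HME 1 or HME 3. Over all genes, the number called at the study thresholds ranged from 1735 (without HME 3) to 2874 (without control 2) with a library left out. FGL1, JAK1 and RELA were no longer called when scaled by library size alone. The counts of 4 members higher in HepG2 controls, 0 interactions and 0 Ls174 calls were the same in all alternatives run, and the filter fixes them or leaves them uninformative.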

Other observations

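Counts outside the largest 3′ region of a gene differed between HepG2 libraries. For ORM1 they made up 12.9%, 1.89% and 11.4% of the counts in controls 1, 2 and 3 and 10.3%, 16.7% and 12.8% in HME 1, 2 and 3. For ORM2 the values were 15.4%, 4.15% and 7.29% in the controls and 10.2%, 14.1% and 10.3% with HME. Over the 8239 genes with several regions and enough counts, the share was 10.9%, 6.93% and 9.68% in the controls and 10.8%, 10.6% and 9.96% with HME, so that control 2 was the lowest of the 6 libraries in each of these measures.

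Control 2 also held a different mixture of liver transcripts. HP (757 CPM), AHSG (11180 CPM), SERPINA1 (2779 CPM), APOA1 (3057 CPM) and A2M (3269 CPM) were each higher there than in the 5 other HepG2 libraries, while ALB (2116 CPM), FGB (233 CPM), AGT (825 CPM) and LYZ (89.3 CPM) were each lower. SERPINA3 (427 CPM) was also lowest in that library.

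PTX3, a long pentraxin related to CRP, had 150 counts in HepG2 HME 2, 1 in HME 3 and 0 in the 4 other HepG2 libraries, and HME 2 was the library with collagen transcripts. In Ls174 cells, 14 of the 17 listed transcription factors and early regulators were tested. As a description of that list, 2 were called higher and 0 lower at the study thresholds. These were CEBPD (log2 fold change 1.54, edgeR adjusted p = 0.183) and NFKBIA (1.30, adjusted p = 0.342). At these thresholds 12% of the 11319 genes tested were called in either direction, while 0 of the 8 members passed the filter on low counts. CEBPD stood at 3.264, 15.38 and 11.04 CPM in controls 1, 2 and 3, and NFKBIA at 11.42, 71.89 and 76.19 CPM. The low control 1 enlarged the folds of both genes. Without control 1, the adjusted calls over all Ls174 genes rose from 134 to 979. LRG1, which Ls174 cells expressed at a mean of 43.9 CPM without and 23.5 CPM with HME (n = 3), was called lower in both lines and fell by 0.89 in Ls174 cells (edgeR adjusted p = 0.250).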
